A study of Mus musculus with 12 samples.

Results

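The libraries described here compare ear skin of wild type mice 1 day after phosphate-buffered saline (PBS) with untreated wild type ear skin. Members were all libraries whose source label was either of these conditions, 3 for PBS and 3 untreated, which is 6 of the 12 libraries of the series. A gene entered when 3 or more of the 12 libraries listed it at 1 FPKM or above, which held for 14059 of the 23234 symbols. FPKM divides the fragments of a gene by its transcript length and by the library's mapped total. Every mouse was of strain C57BL/6J and 8 to 12 weeks old. The untreated group (WT_untreated) received no stimulus, and the PBS group (WT_PBS) was collected 1 day after PBS. The labels carry an application protocol for the ointment alone, and the sources used here state neither the volume and delivery of PBS nor how untreated ears were handled. The other 6 libraries come from ears given the ointment Oxarol, 100 mg of it with 2.5 µg of maxacalcitol, which acts like vitamin D3, in wild type mice (WT_Oxarol) and in K5-Cre;VDR f/f mice (VDRcKO_Oxarol). In the latter, Cre recombinase driven by the keratin 5 promoter targets the vitamin D receptor gene in basal keratinocytes. The series was made to follow the skin response to the ointment, and the comparison below asks how ears given PBS alone differ from untreated ears.

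As background, the epidermis answers friction, tape or a small wound with a stereotyped programme. Keratinocytes switch on the stress keratins Krt6a, Krt6b and Krt16, the calcium-binding alarmins S100a8 and S100a9 and chemokines that draw neutrophils and monocytes, and they divide more. Ear skin also carries cartilage, fat, nerve and thin striated muscle, so a bulk sample of ear mixes their RNA with that of epidermis and dermis. A bulk measurement cannot tell fewer cells of a type from less RNA per cell.

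The 6 libraries listed 17862 to 19478 genes above 0. Pearson correlations of log2(FPKM + 1) over the genes tested were 0.931 to 0.955 among the untreated libraries, 0.950 to 0.966 among the PBS libraries and 0.933 to 0.965 between the groups. Read numbers were not used here as deposited counts. The steps between low values put untreated replicates 2 and 3 at 1.02 and 0.718 times the reads of untreated replicate 1, and PBS replicates 1, 2 and 3 at 1.40, 0.898 and 7.98 times. PBS replicate 3 was therefore the deepest of the 6 libraries, and it was the only one of the 6 to list Krt2, Scd1, Ubb, G3bp2 and Phactr2 at 0, although their medians over the 12 libraries were 13.7 to 3241 FPKM. The replicate numbers used here are names given in accession order; the labels carry none, and a shared number pairs no libraries. The library codes in the labels fall into 2 series, with replicates 1 and 2 of both groups in the first and replicate 3 of both groups in the second; the labels do not call this a batch. The labels do not say that libraries of a group came from separate mice, so the p-values measure the spread between these libraries, which may be technical. The keratinocyte genes Krt5 and Krt14 stood at 490 to 708 FPKM and 907 to 1799 FPKM over the 6 libraries, so the defining markers of epidermis were present in each.

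Across the 14059 genes, 1 gene passed an adjusted p of 0.05 (limma with Benjamini-Hochberg adjustment, 0.00711% of the genes tested), the microRNA gene Mir1224, which was above 0 only in the PBS libraries and entered the test through them. No gene passed in the other direction, where 753 had an unadjusted p under 0.05. At an unadjusted p under 0.05 there were 1312 genes (9.33%), 559 higher with PBS (3.98%) and 753 lower (5.36%). The 3 PBS libraries lay wholly above the 3 untreated libraries for 787 genes (5.6%) and wholly below them for 1044 genes (7.43%), together 13%. Differences are given as PBS minus untreated on the log2(FPKM + 1) scale with the standard error from limma, a scale that understates changes of low genes. On it, the median over all genes was 0.003, 109 genes differed by more than 2-fold upward and 80 by more than 2-fold downward. The genes next in order after Mir1224 had an adjusted p of 0.0660, so every other gene named below is given by its values and as not passing. Genes named by smallest p were taken only where the groups did not overlap, so their separation was a condition of naming and no result. Without PBS replicate 2 the 1312 became 532, and without PBS replicate 1 they became 870. The gene lists used below were chosen with earlier results of these libraries known.

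**Figure D1:**
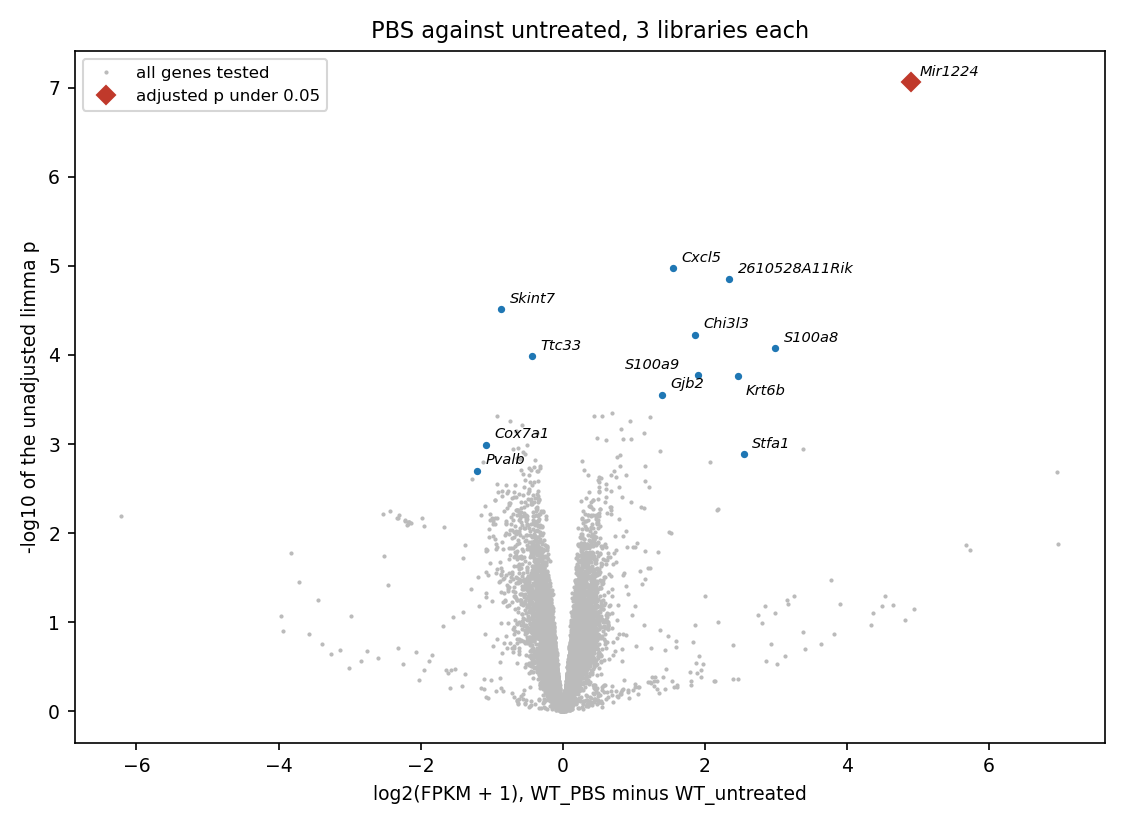
Difference between PBS and untreated ear skin (horizontal axis, log2(FPKM + 1), PBS minus untreated) against the negative log10 of the unadjusted limma p (vertical axis) for the 14059 genes tested. Mir1224 at 4.91 is the single gene with an adjusted p under 0.05, drawn as a diamond; blue points are named genes that did not pass.

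Mir1224 encodes a short hairpin that is cut into mature microRNAs of 21 bases. Both mature sequences are shown because this is the one gene that passed; they are RefSeq sequences on GRCm38.p6, a later build than the mm9 of the deposited values, on the plus strand, and the capitals mark the seed, bases 2 to 8, which pairs with targets.
mmu-miR-1224-5p: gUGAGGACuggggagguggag
mmu-miR-1224-3p: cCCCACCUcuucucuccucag
The first lies at chr16:20604452-20604472 and the second at chr16:20604516-20604536, inside the span of the protein-coding gene Vwa5b2 in the same annotation. The seeds differ, so the arms belong to separate seed groups. Mir1224 was listed at 0 in all 3 untreated libraries and at 35.99, 54.7 and 12.3 FPKM in PBS replicates 1, 2 and 3. All 6 ointment libraries listed it at 0 as well, so 9 of the 12 libraries were at 0. The difference from untreated was 4.91 ± 0.38 (adjusted p = 0.00122). Mir1224 met the filter on low values only through the 3 PBS libraries, and its standard error draws on the 9 libraries at 0, so this p is given as computed and nothing is rested on it. Multiplied by the relative read numbers above, the 3 PBS values stood as 1 to 0.977 to 1.95, so the read numbers behind them were near 1 to 1 to 2 in proportion; the absolute number of reads was not recovered. Vwa5b2 itself was near 0 throughout, at 0 to 0.118 FPKM in untreated libraries and 0.0318 to 0.0352 FPKM in PBS libraries. With only the 6 libraries in the fit the adjusted p was 0.0706, and Mir1224 did not pass. Of 180 short RNA genes tested, 7 were higher (3.98% of all genes) and 5 lower (5.36%) at an unadjusted p under 0.05. A value for the gene does not separate the mature arms from the hairpin or from reads of the surrounding gene.

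Genes of activated and wounded epidermis made up the list with the highest median. Of 23 members tested, 20 were above 0, 10 were higher at an unadjusted p under 0.05 against a background of 3.98%, none was lower, and 9 lay wholly above the untreated libraries against a background of 5.6%. The median difference of the list was 0.62, and none of the 23 passed the adjusted test. The members with the smallest p were the alarmins and the stress keratin Krt6b.

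S100a8, a subunit of calprotectin, which binds calcium and zinc and is made by activated keratinocytes and by neutrophils, stood at 6.74, 1.66 and 9.85 FPKM untreated and at 58.7, 67.6 and 26.8 FPKM with PBS. Every PBS library was above every untreated one, with the mean 8.39 times the untreated mean and a difference of 2.998 ± 0.49 (adjusted p = 0.195). Its partner S100a9 stood at 4.70, 2.20 and 4.99 FPKM untreated and at 23.3, 22.9 and 8.84 FPKM with PBS. For both subunits PBS replicate 3 was the lowest of its group and untreated replicate 2 the lowest of all, and the S100a9 difference was 1.90 ± 0.34 (adjusted p = 0.271).

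Krt6b, a keratin of the outer root sheath that interfollicular epidermis adds after injury, stood at 3.84, 3.71 and 5.44 FPKM untreated and at 37.8, 41.9 and 13.8 FPKM with PBS, a difference of 2.46 ± 0.44 (adjusted p = 0.271). Krt6a, its near-identical neighbour, stood at 14.3, 15.7 and 18.3 FPKM and then at 50.8, 57.6 and 26.8 FPKM (1.37 ± 0.31, adjusted p = 0.430). The groups did not overlap for either keratin, and PBS replicate 3 was again nearest to the untreated libraries. Reads of near-identical copies can be split between them, so the Krt6a and Krt6b values are uncertain relative to each other. Their partner Krt16 stood at 75.6, 74.3 and 53.2 FPKM untreated and 120, 153 and 76.6 FPKM with PBS, where the lowest PBS library was just above the highest untreated one (0.74 ± 0.24, adjusted p = 0.456). Krt17, Krt75 and Fn1, in the same list, had differences of 0.18, -0.18 and -0.02.

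The remaining members high in all PBS libraries were proteases, a protease receptor and a stefin. Mmp10, a metalloprotease of the migrating wound edge, stood at 2.45, 2.52 and 1.74 FPKM untreated and 4.54, 3.63 and 3.70 FPKM with PBS. Plaur, the urokinase receptor, stood at 12.6, 10.4 and 13.0 FPKM against 22.1, 17.3 and 20.4 FPKM. Mmp13, a collagenase, did not exceed 0.414 FPKM untreated and stood at 1.85, 1.41 and 0.551 FPKM with PBS. Mmp10, Plaur and Mmp13 did not overlap between groups, and the first and second of these did not show the lower value of PBS replicate 3. Stfa1, a stefin that inhibits cysteine proteases and belongs to a cluster of near-identical genes, stood at 2.72, 0.924 and 9.22 FPKM untreated and at 30.4, 39.4 and 10.6 FPKM with PBS. The groups were separate by a small margin at replicate 3, and the difference of 2.55 ± 0.59 (adjusted p = 0.430) came from 3.73 within the first code series and 0.18 within the second.

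**Figure D2:**
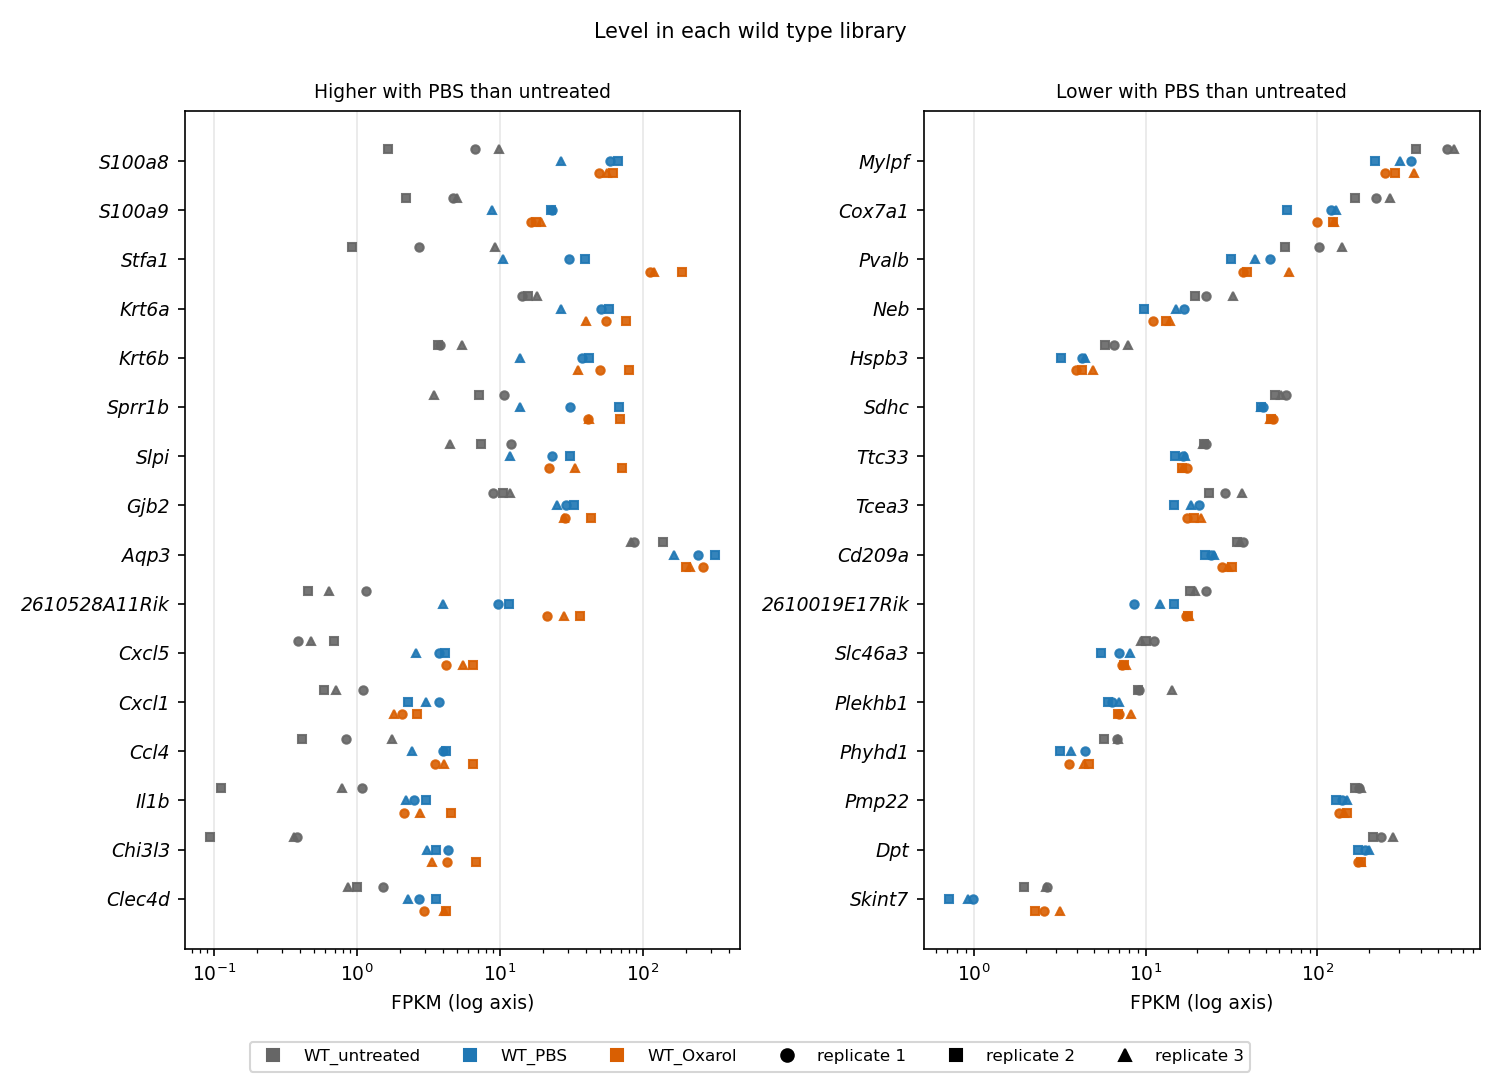
FPKM on a log axis in each wild type library for genes named in the text, 16 on the left that were higher and 16 on the right that were lower with PBS; grey is untreated, blue PBS, orange Oxarol, and the marker shape gives the replicate. S100a8 at 26.8 to 67.6 FPKM with PBS lies above 1.66 to 9.85 FPKM untreated, while Skint7 at 0.720 to 0.995 FPKM lies below 1.96 to 2.68 FPKM.

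Among chemokines, 9 of 25 members tested were higher at an unadjusted p under 0.05 (3.98% of all genes) and 1 was lower (5.36%). Of the 25, 9 lay wholly above the untreated libraries (5.6% of all genes) and 1 wholly below (7.43%), and the list median was 0.39, or 0.22 without untreated replicate 1. Cxcl5, Cxcl1 and Cxcl2 are neutrophil attractants that act on the receptor Cxcr2. Cxcl5, the member with the smallest p, stood at 0.391, 0.693 and 0.483 FPKM untreated and 3.78, 4.17 and 2.58 FPKM with PBS. The PBS mean was 6.73 times the untreated mean, without overlap, and the difference of 1.56 ± 0.20 had an adjusted p of 0.0660. Cxcl1 stood at 1.11, 0.590 and 0.716 FPKM against 3.75, 2.29 and 3.04 FPKM (1.15 ± 0.25, adjusted p = 0.430). Cxcl2 stood at 0.145, 0 and 1.16 FPKM against 3.98, 2.83 and 2.08 FPKM. For Cxcl1, unlike the alarmins, the difference within the second code series (1.23) was as large as within the first (1.11).

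Ccl7 and Ccl2 attract monocytes. Ccl7 stood at 73.4, 41.7 and 66.7 FPKM untreated and 113, 97.3 and 142 FPKM with PBS. Ccl2 stood at 26.0, 14.4 and 23.2 FPKM untreated and 40.7, 34.2 and 59.0 FPKM with PBS. For both genes untreated replicate 2 was the lowest of the 6 libraries and PBS replicate 3 the highest, and the groups did not overlap. Ccl4, a chemokine of activated myeloid cells, stood at 0.839, 0.412 and 1.75 FPKM against 4.01, 4.20 and 2.43 FPKM (1.22 ± 0.32, adjusted p = 0.430). The member that was lower was Ccl27a, a chemokine of resting keratinocytes that attracts T cells to skin, at 274, 241 and 256 FPKM untreated and 196, 130 and 193 FPKM with PBS (-0.59 ± 0.26, adjusted p = 0.530).

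The interleukin-1 family list had 17 members tested, 3 of them higher at an unadjusted p under 0.05 (3.98% of all genes) and none lower, with a median of 0.09 that was -0.009 without untreated replicate 3. Il1b, the inflammatory cytokine, stood at 1.08, 0.112 and 0.792 FPKM untreated and 2.53, 3.04 and 2.22 FPKM with PBS (1.16 ± 0.30, adjusted p = 0.430). Il1rl1, which encodes the receptor for interleukin-33, stood at 0.753, 0.546 and 1.12 FPKM and then at 1.91, 2.05 and 2.37 FPKM, again without overlap. Its ligand Il33 had a difference of -0.19, and Il1a one of -0.20. Among other cytokines, Tnf and Il6 did not reach the filter, at up to 0.527 and 0.434 FPKM, and Il17a and Il22 were listed at 0 in all 6 libraries.

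The gene 2610528A11Rik encodes a ligand of the receptor Gpr15, a secreted protein made by epithelia. It stood at 1.16, 0.454 and 0.643 FPKM untreated and at 9.77, 11.6 and 4.01 FPKM with PBS. The lowest PBS library was above the highest untreated one, the PBS mean was 11.3 times the untreated mean, and the difference of 2.35 ± 0.31 had an adjusted p of 0.0660. Chi3l3, a chitinase-like protein of neutrophils and alternatively activated macrophages, stood at 0.383, 0.0941 and 0.366 FPKM untreated and 4.36, 3.57 and 3.09 FPKM with PBS (1.87 ± 0.29, adjusted p = 0.167). Skint7, a member of the Skint family of epidermal membrane proteins related to butyrophilins, was the gene named here with the smallest p in the lower direction. It stood at 2.68, 1.96 and 2.64 FPKM untreated and at 0.995, 0.720 and 0.927 FPKM with PBS, with the untreated mean 2.76 times the PBS mean and a difference of -0.86 ± 0.12 (adjusted p = 0.108). Its groups did not overlap, and its difference was of like size within the first (-0.83) and the second (-0.92) code series.

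The neutrophil marker list had 9 members tested. Of these, 9 were above 0 (50.7% of all genes), 5 were higher at an unadjusted p under 0.05 (3.98%), 6 lay wholly above the untreated libraries (5.6%), and the median was 0.33. Without untreated replicate 2 that median was 0.53, and without PBS replicate 3 it was 0.26. It was 0.74 with a pseudocount of 0.1, and ran from 0.24 to 1.02 over the alternatives other than leaving out 1 library. The list shares S100a8, S100a9 and Mmp9 with the activated epidermis list. Of the members it does not share, Clec4d, a myeloid lectin receptor, stood at 1.52, 1.00 and 0.864 FPKM untreated and 2.71, 3.58 and 2.28 FPKM with PBS (0.86 ± 0.19, adjusted p = 0.430). Retnlg, a resistin-like protein of neutrophils, stood at 1.58, 0.465 and 0.220 FPKM against 2.60, 1.93 and 3.82 FPKM (1.16 ± 0.28, adjusted p = 0.430). Both genes were separate between the groups, with untreated replicate 1 the highest untreated library for each. Csf3r, the receptor for granulocyte colony-stimulating factor, stood at 1.54 to 1.94 FPKM untreated and 2.20 to 2.52 FPKM with PBS. The granule genes Mpo, Elane and Ngp, made by neutrophil precursors, were at 0 to 0.496 FPKM in all 6 libraries, and Ly6g was not analysed here. The summed level of the 9 members was 133 to 176 FPKM untreated and 188 to 233 FPKM with PBS, most of it Il1r2, at 106 to 147 FPKM. The part of neutrophils in the S100a8, S100a9 and Chi3l3 values was not tested.

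Other immune lists were near the centre. For T cell genes 17 members were tested and none was higher or lower at an unadjusted p under 0.05 (median -0.01). Langerhans cell and MHC class II genes gave 16 members tested, none past that level, and a median of -0.08. Macrophage and monocyte genes gave 20 members (median -0.03), 1 higher (3.98% of all genes) and 2 lower (5.36%). Cd14, the lipopolysaccharide co-receptor, was higher (0.44), and the macrophage markers Emr1 (-0.35) and Cd163 (-0.27) were lower. Among 12 mast cell and basophil genes, Hdc, which makes histamine, stood at 4.59, 4.57 and 6.22 FPKM untreated and 9.15, 9.56 and 8.48 FPKM with PBS (0.73 ± 0.18, adjusted p = 0.430). Tpsab1, a tryptase, stood at 3.30, 1.77 and 2.50 FPKM against 4.20, 3.52 and 4.55 FPKM. The granule proteases Cma1 and Mcpt4 in the same list had differences of -0.13 and -0.20, and the list median was -0.04. Cd209a, a lectin of dermal dendritic cells and no member of a list, stood at 36.9, 34.2 and 35.2 FPKM untreated and 24.0, 22.2 and 25.004 FPKM with PBS, a tight pair of groups with a difference of -0.56 ± 0.13 (adjusted p = 0.430).

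Antimicrobial proteins had 5 of 18 members higher at an unadjusted p under 0.05 (3.98% of all genes), none lower and a median of 0.25 (0.07 without untreated replicate 3), and S100a8 and S100a9 are among the 5. Slpi, a secreted inhibitor of neutrophil elastase, stood at 12.0, 7.38 and 4.50 FPKM untreated and 23.0, 30.8 and 11.8 FPKM with PBS, where PBS replicate 3 lay within the untreated range. Lcn2, which binds bacterial siderophores, stood at 1.97, 2.61 and 1.23 FPKM against 3.67, 4.05 and 3.22 FPKM, without overlap. The beta-defensin Defb4 was listed at 0 in the 3 untreated libraries and at 0.897, 1.67 and 0.251 FPKM with PBS. Its level was low in every library that listed it.

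Barrier genes were followed by family. In the small proline-rich family, whose products cross-link into the cornified envelope, 3 of 11 members were higher at an unadjusted p under 0.05 (3.98% of all genes) and none lower. Sprr1b stood at 10.8, 7.13 and 3.46 FPKM untreated and 30.8, 68.0 and 13.8 FPKM with PBS (2.08 ± 0.49, adjusted p = 0.430), while Sprr1a had a difference of -0.08. Sprr2h stood at 17.4, 10.7 and 7.85 FPKM against 28.6, 61.9 and 12.3 FPKM, with overlap. The family median was 0.41, but 0.07 without PBS replicate 2 and 0.82 without PBS replicate 3, and Sprr2 genes are near-identical copies that may share reads. In the late cornified envelope family 3 of 18 members were higher, none lower, and the median was 0.12. Without untreated replicate 3 the median was -0.14 and no member was higher, without PBS replicate 2 none was higher either, and in the first code series alone the median was -0.04. No direction is read for the family. The 3 were Lce3c, Lce3b and Lce3f, of the group linked to repair, with differences of 0.99, 1.16 and 1.12. The Lce1 genes tested had differences of -0.23 to 0.23. Cornified envelope scaffold and processing genes gave 5 of 28 higher, none lower at that level and a median of 0.09. Krt2 of this list was listed at 0 in PBS replicate 3, and the lowest member difference was -3.26. Without PBS replicate 2 the count was 1 and the median -0.01, the count was 1 with the 9 wild type libraries, and it was 8 without PBS replicate 3. Tgm1, the cross-linking enzyme, stood at 15.5, 17.3 and 14.95 FPKM against 19.2, 23.9 and 18.04 FPKM, and Lor, which encodes loricrin, had a difference of -0.04.

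Several higher genes outside the lists above follow, named by smallest p except Mmp3, which was chosen after its values were seen. Gjb2, which encodes the gap junction protein connexin 26, stood at 8.95, 10.5 and 11.8 FPKM untreated and 29.1, 33.2 and 25.2 FPKM with PBS. All PBS libraries were at least 25.2 FPKM and no untreated library was above 11.8 FPKM, a difference of 1.40 ± 0.26 (adjusted p = 0.392). Aqp3, the water and glycerol channel of keratinocytes, stood at 86.4, 138 and 82.5 FPKM against 242, 320 and 166 FPKM (1.23 ± 0.25, adjusted p = 0.430). Car12, a membrane carbonic anhydrase, stood at 7.41, 10.5 and 8.80 FPKM against 13.9, 18.4 and 12.7 FPKM (0.69 ± 0.14, adjusted p = 0.430). Neither Aqp3 nor Car12 overlapped between the groups, which for genes named by smallest p was a condition of naming. In the osmotic and hydration list, which holds Aqp3, 2 of 13 members were higher at an unadjusted p under 0.05 (3.98% of all genes) and the median was 0.15. It was 0.06 without untreated replicate 1 and 0.26 without untreated replicate 3. Tagln2, an actin-binding protein, and Bok, of the Bcl2 family, also stood apart, at 46.7 to 58.3 against 66.5 to 74.9 FPKM and 49.3 to 57.2 against 78.0 to 83.2 FPKM. Mmp3, a stromal metalloprotease, stood at 42.7, 44.8 and 32.1 FPKM untreated and 70.5, 80.2 and 62.0 FPKM with PBS (0.82 ± 0.17, adjusted p = 0.430).

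The windows before the starts of named genes are shown for 2610528A11Rik and for the chemokine Cxcl1, as the higher genes include secreted proteins of epithelia and attractants. They are the 250 bases before the start in RefSeq, build GRCm38.p6, and capitals mark every match to GGGNNNNNCC, the outline of an NF-kappaB motif, on both strands with overlapping matches joined.
2610528A11Rik: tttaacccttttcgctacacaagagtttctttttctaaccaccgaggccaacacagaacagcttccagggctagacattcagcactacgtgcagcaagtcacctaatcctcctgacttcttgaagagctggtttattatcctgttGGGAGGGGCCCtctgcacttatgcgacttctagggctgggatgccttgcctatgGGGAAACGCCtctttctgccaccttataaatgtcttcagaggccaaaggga
Cxcl1: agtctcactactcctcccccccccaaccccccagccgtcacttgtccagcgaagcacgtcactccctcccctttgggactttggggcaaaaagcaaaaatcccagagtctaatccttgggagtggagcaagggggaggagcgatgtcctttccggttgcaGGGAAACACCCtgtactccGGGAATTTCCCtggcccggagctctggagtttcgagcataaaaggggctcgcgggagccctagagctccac
The first lies at chr14:37110102-37110351 on the minus strand and the second at chr5:90890995-90891244 on the plus strand. GGGNNNNNCC occurs in 45.8% of all 32851 such windows and in 5 of the 8 windows found for the 9 higher genes named by smallest p. The windows of S100a8, S100a9 and Car12, not shown, held no match to it. Cxcl1 was named through its list, so its window is not among the 8. TGANTCA, the outline of an AP-1 site, occurs in 6.75% of all windows and in 0 of those 8, and TTCNNNGAA, the outline of a STAT site, in 7.02% and in 0. A match is a description of the letters and says nothing about binding.

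Every member of the cell cycle and DNA replication list, 33 of 33, had a difference above 0, where 50.7% of all genes did. Of them 7 were higher at an unadjusted p under 0.05 (3.98% of all genes), none lower, 4 lay wholly above the untreated libraries (5.6%), and the median was 0.36. Mcm5, a subunit of the replicative helicase, stood at 5.32, 6.28 and 4.84 FPKM untreated and 10.6, 12.3 and 6.26 FPKM with PBS, where PBS replicate 3 lay just below untreated replicate 2. Ccnd1, the G1 cyclin, stood at 30.9, 42.3 and 36.9 FPKM against 49.8, 47.0 and 44.0 FPKM (0.36 ± 0.10, adjusted p = 0.430). Bub1, a mitotic checkpoint kinase, stood at 0.821, 0.609 and 0.388 FPKM against 1.48, 1.19 and 0.879 FPKM. The mean log2(FPKM + 1) of the list was 3.21, 3.15 and 2.73 untreated and 3.40, 3.66 and 3.10 with PBS. The groups overlapped in that mean, with PBS replicate 3 below untreated replicates 1 and 2. Replicate 3 was the lowest library of its own group, both untreated and with PBS. The count of 7 became 18 without PBS replicate 3 and 2 without untreated replicate 3, PBS replicate 1 or PBS replicate 2. All members were measured in the same 6 libraries, so 33 of like sign are not 33 separate observations. Myc, a growth regulator, stood at 39.9, 41.9 and 35.97 FPKM untreated and 64.8, 66.3 and 43.8 FPKM with PBS (0.54 ± 0.14, adjusted p = 0.430).

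Basal keratinocyte genes gave 2 of 16 higher at an unadjusted p under 0.05 (3.98% of all genes), none lower and a median of 0.27, or 0.11 without untreated replicate 1. Sfn, which encodes 14-3-3 sigma of keratinocytes, stood at 844, 764 and 741 FPKM against 1050, 1123 and 912 FPKM (0.39 ± 0.11, adjusted p = 0.430). Krt5 and Krt14 had differences of 0.22 and 0.33, and their groups overlapped. Cholesterol and fatty acid synthesis gave 3 of 24 higher, none lower at that level, and a median of 0.17. Scd1 of this list was listed at 0 in PBS replicate 3, and the lowest member difference was -3.57. The count was 9 without untreated replicate 2 and 1 without PBS replicate 1 or PBS replicate 2.

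The immediate early list had 27 members tested, 2 higher at an unadjusted p under 0.05 (3.98% of all genes), Myc and Egr3, and a median of 0.08. Fos, its best known member, stood at 5.14, 3.29 and 27.4 FPKM untreated and 11.1, 12.1 and 26.2 FPKM with PBS. Egr1 stood at 7.56, 15.7 and 44.1 FPKM against 15.6, 18.2 and 37.8 FPKM, and Atf3 at 2.89, 1.60 and 11.9 FPKM against 3.10, 1.89 and 8.28 FPKM. For all 3 genes the replicate 3 libraries of both groups, which carry the second code series, were above the other 4, and the groups overlapped. Without untreated replicate 3 the median of the list was 0.43 with 10 members higher, and without PBS replicate 3 it was -0.04.

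Over all genes, 3.98% were higher and 5.36% lower at an unadjusted p under 0.05, the background for each list of this paragraph. Heat shock and chaperone genes gave 1 of 17 higher and 1 lower (median 0.04, or -0.06 without untreated replicate 2). Glucocorticoid-induced genes gave 1 of 17 higher and 1 lower, with a median of 0.10, or 0.03 and 4 higher without untreated replicate 3. Fkbp5, a standard glucocorticoid target, stood at 11.5 to 11.8 FPKM untreated and 12.0 to 12.6 FPKM with PBS, a difference of 0.07. Circadian clock genes gave 2 of 17 higher and none lower (median 0.06), but 2 higher and 4 lower without untreated replicate 1 (median -0.12) and 3 higher and 5 lower with array weights. The member with the smallest p was the repressor Cry1, at 4.98, 9.50 and 9.02 FPKM against 12.5, 12.6 and 11.5 FPKM. Untreated replicate 1 was low for Cry1, and without it the difference of 0.63 became 0.37. Targets of the oxidative stress factor NRF2 went both ways, 5 of 17 higher (3.98% of all genes) and 2 lower (5.36%), with a median of 0.07, or 0.02 without untreated replicate 3. Hmox1, heme oxygenase, stood at 25.1, 21.6 and 21.7 FPKM against 32.1, 31.9 and 29.2 FPKM, and the glutathione transferase Gstm1 at 206, 149 and 161 FPKM against 129, 130 and 138 FPKM. Gsta4, a transferase for lipid aldehydes, stood at 14.4, 9.32 and 8.49 FPKM against 28.2, 34.3 and 13.7 FPKM. Interferon-induced genes gave 0 of 19 past the unadjusted level in either direction (median -0.01), and none passed the adjusted test.

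**Figure D3:**
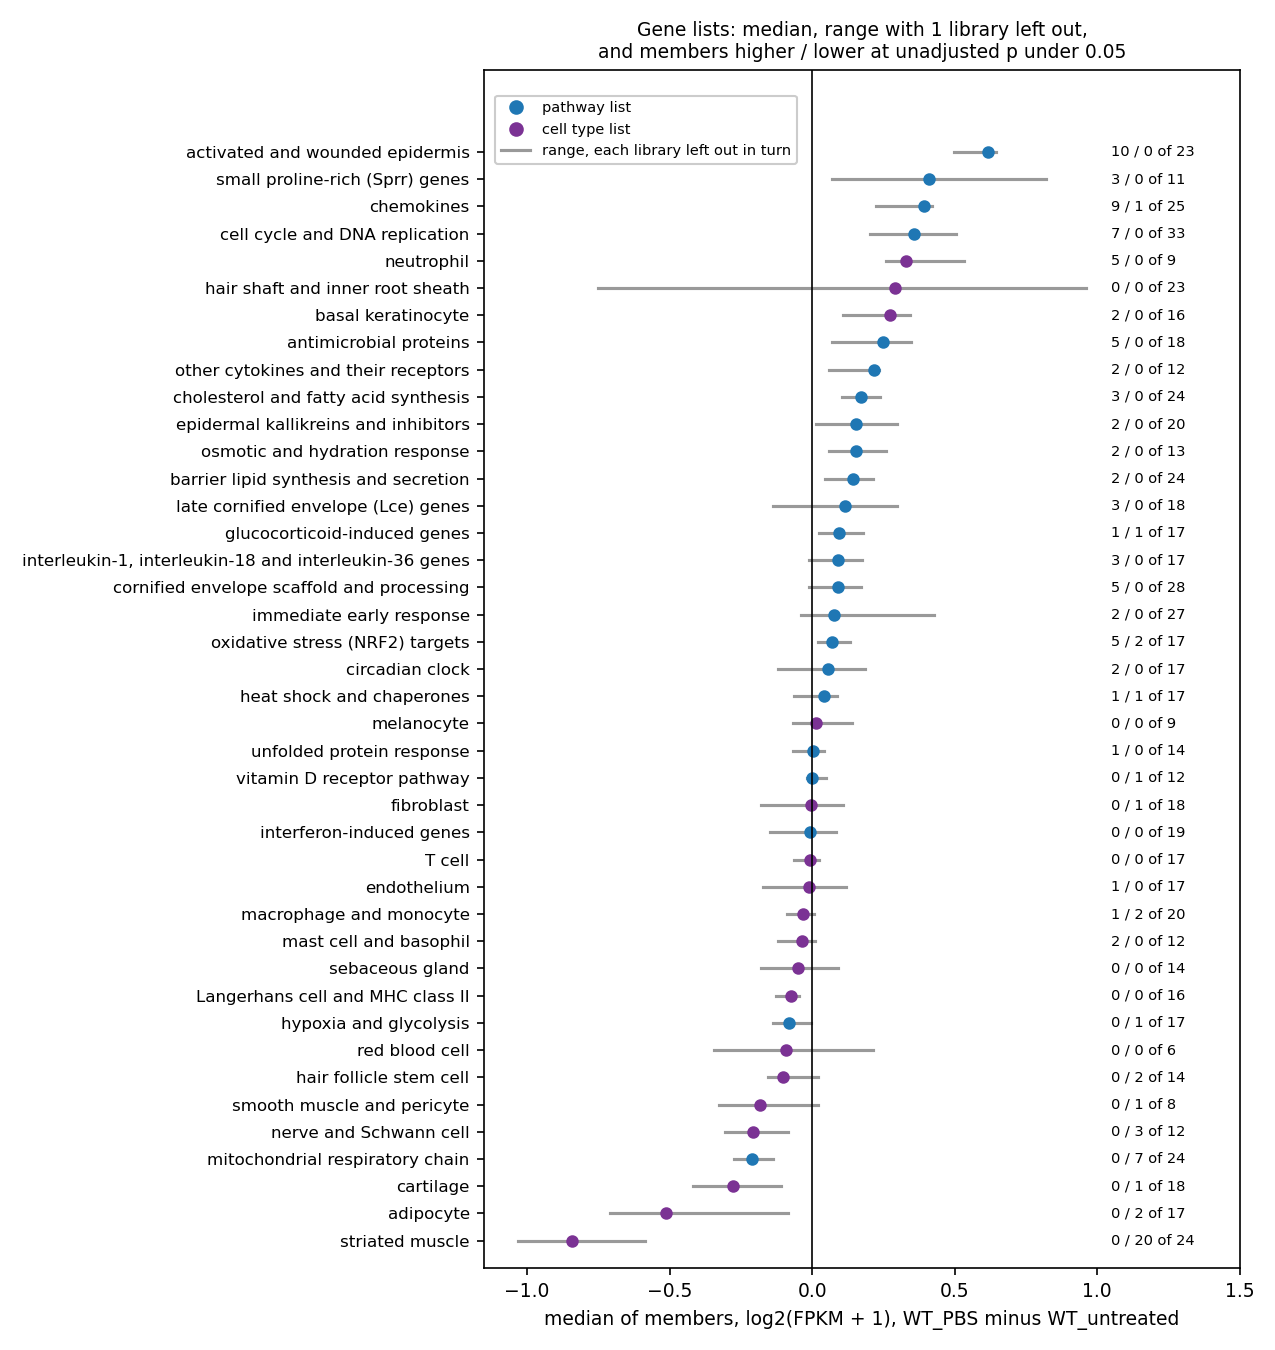
Median difference between PBS and untreated (log2(FPKM + 1)) over the members of each of 41 gene lists with 5 or more members tested; the grey line is the range when each library is left out in turn, and the numbers are members higher, lower and tested at an unadjusted p under 0.05. The list of activated and wounded epidermis is at the top at 0.62 and striated muscle at the bottom at -0.84, while the line of the hair shaft list runs from -0.75 to 0.96.

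The list with the lowest median was striated muscle. Of 24 members tested, 24 were below 0, where 49.3% of all genes were, 20 were lower at an unadjusted p under 0.05 against a background of 5.36%, and 16 lay wholly below the untreated libraries against a background of 7.43%. The median was -0.84, and none passed the adjusted test. Pvalb, the calcium buffer of fast fibres, stood at 102, 64.8 and 138 FPKM untreated and 52.9, 31.5 and 43.0 FPKM with PBS (-1.20 ± 0.30, adjusted p = 0.430). Mylpf, a fast myosin light chain, stood at 570, 377 and 627 FPKM against 348, 216 and 303 FPKM (-0.85 ± 0.23, adjusted p = 0.430). Neb, the thin filament ruler nebulin, stood at 22.4, 19.4 and 32.3 FPKM against 16.7, 9.76 and 14.99 FPKM.

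Untreated replicate 3 was the highest and PBS replicate 2 the lowest library for most of these genes. Acta1, skeletal actin, stood at 1595, 1643 and 4069 FPKM untreated and 1456, 704 and 1228 FPKM with PBS. The summed level of the 24 members was 8314 to 17426 FPKM untreated and 3885 to 7295 FPKM with PBS, so the groups were separate in the sum. Without untreated replicate 3 the median was -0.59 with 13 of 24 members lower at an unadjusted p under 0.05, and without PBS replicate 2 it was -0.65 with 12 of 24. The 24 genes share a tissue, so they report one quantity many times. How much muscle each ear sample held was not measured apart from these genes, and its part in the other lower genes was not tested.

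Several of the lower genes named by smallest p outside the lists are known from muscle or oxidative tissue. Cox7a1, the heart and muscle form of a cytochrome oxidase subunit, stood at 218, 166 and 264 FPKM untreated and 119, 66.4 and 127 FPKM with PBS (-1.07 ± 0.24, adjusted p = 0.430). Hspb3, a small heat shock protein of muscle, stood at 6.52, 5.76 and 7.85 FPKM against 4.28, 3.20 and 4.43 FPKM, and Tcea3, a transcription elongation factor, at 28.8, 23.4 and 36.6 FPKM against 20.4, 14.6 and 18.4 FPKM. In all 3 genes PBS replicate 2 was the lowest library, as in the muscle list. It was also the lowest for Ttc33, Phyhd1, Cd209a, Slc46a3 and Plekhb1, though not for 2610019E17Rik. A low value in PBS replicate 2 was therefore not particular to genes known from muscle. The mitochondrial respiratory chain list had 24 of 24 members below 0 (49.3% of all genes) and a median of -0.21. Of these, 7 were lower at an unadjusted p under 0.05 (5.36%) and none higher. All were measured in the same 6 libraries, so they are not separate observations. The mean log2(FPKM + 1) of this list was highest in untreated replicate 1 (7.83) and lowest in PBS replicate 3 (7.47). For the muscle list these were untreated replicate 3 (7.48) and PBS replicate 2 (5.61). In the mitochondrial list, untreated replicate 3 was the next highest library and PBS replicate 2 the next lowest, each by a small margin. The library at the extreme therefore does not separate the mitochondrial list from the muscle list. The part of muscle in the mitochondrial values was not tested. Sdhc, a subunit of succinate dehydrogenase, was the mitochondrial member with the smallest p. It stood at 65.6, 56.7 and 61.2 FPKM untreated and 48.4, 46.8 and 47.1 FPKM with PBS (-0.36 ± 0.08, adjusted p = 0.430). Quantile normalization put 3 of the 24 above 0, and the count of 7 became 1 without PBS replicate 2, 3 without untreated replicate 1 or PBS replicate 3, and 15 without untreated replicate 2. Without untreated replicate 1 the median was -0.14. With array weights the median was -0.08.

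Other lower genes named by smallest p had no shared list. Ttc33, a protein with tetratricopeptide repeats, stood at 22.4, 21.9 and 21.6 FPKM untreated and 16.4, 14.8 and 16.9 FPKM with PBS, with a difference of -0.43 ± 0.07 (adjusted p = 0.207). The transcript 2610019E17Rik stood at 22.4, 18.2 and 19.3 FPKM against 8.51, 14.7 and 12.1 FPKM (-0.74 ± 0.15, adjusted p = 0.430). Phyhd1, a dioxygenase, stood at 6.82, 5.71 and 6.90 FPKM against 4.44, 3.15 and 3.70 FPKM. Slc46a3, a lysosomal transporter, stood at 9.43 to 11.2 FPKM against 5.46 to 8.15 FPKM, and Plekhb1 at 8.99 to 14.2 FPKM against 6.02 to 6.95 FPKM. The groups of all 5 genes were separate, which the rule that named them required.

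Tissue lists other than muscle were lower by less or rested on 1 library. Adipocyte genes gave 2 of 17 lower at an unadjusted p under 0.05 (5.36% of all genes), none higher and a median of -0.51. Adipoq, the adipocyte hormone adiponectin, stood at 61.1, 52.6 and 179 FPKM untreated and 48.5, 40.0 and 54.6 FPKM with PBS, so untreated replicate 3 was more than 2-fold above every other library and the groups overlapped. Without that library the list median was -0.08 and no member was lower, and without untreated replicate 2 the count was 9. Cartilage genes gave 1 of 18 lower (5.36% of all genes), Col2a1, the main cartilage collagen. Col2a1 stood at 2.61, 4.35 and 3.62 FPKM against 2.27, 1.18 and 2.51 FPKM, and the list median was -0.28. That median was -0.11 without PBS replicate 2, with no member lower, -0.42 without untreated replicate 3, and -0.53 in the first code series alone. In the nerve and Schwann cell list 3 of 12 were lower at an unadjusted p under 0.05 (5.36% of all genes) and none higher (median -0.21). Without untreated replicate 1 the count was 8 and the median -0.30, and without untreated replicate 3 the median was -0.08. The myelin gene Pmp22 stood at 174, 165 and 179 FPKM against 138, 127 and 149 FPKM, without overlap. Fibroblast genes gave 1 of 18 lower (5.36% of all genes) and a median of -0.003. That median was -0.18 without untreated replicate 1 and 0.11 without untreated replicate 2. The 1 lower was Dpt, dermatopontin, at 233, 210 and 275 FPKM against 190, 172 and 200 FPKM.

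Hair shaft and inner root sheath genes gave 23 members tested with none past the unadjusted level in either direction. Krt31, a hair shaft keratin, stood at 0.0812, 0.711 and 15.7 FPKM untreated and 0.141, 2.05 and 41.7 FPKM with PBS. Replicate 3 of each group held nearly all of the signal, and the summed level of the list was 224 FPKM in untreated replicate 3 and 409 FPKM in PBS replicate 3 against 21.7 to 32.5 FPKM in the other 4 libraries. The list median of 0.29 became -0.75 without PBS replicate 3 and 0.96 without untreated replicate 3. No direction is read from it.

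**Figure D4:**
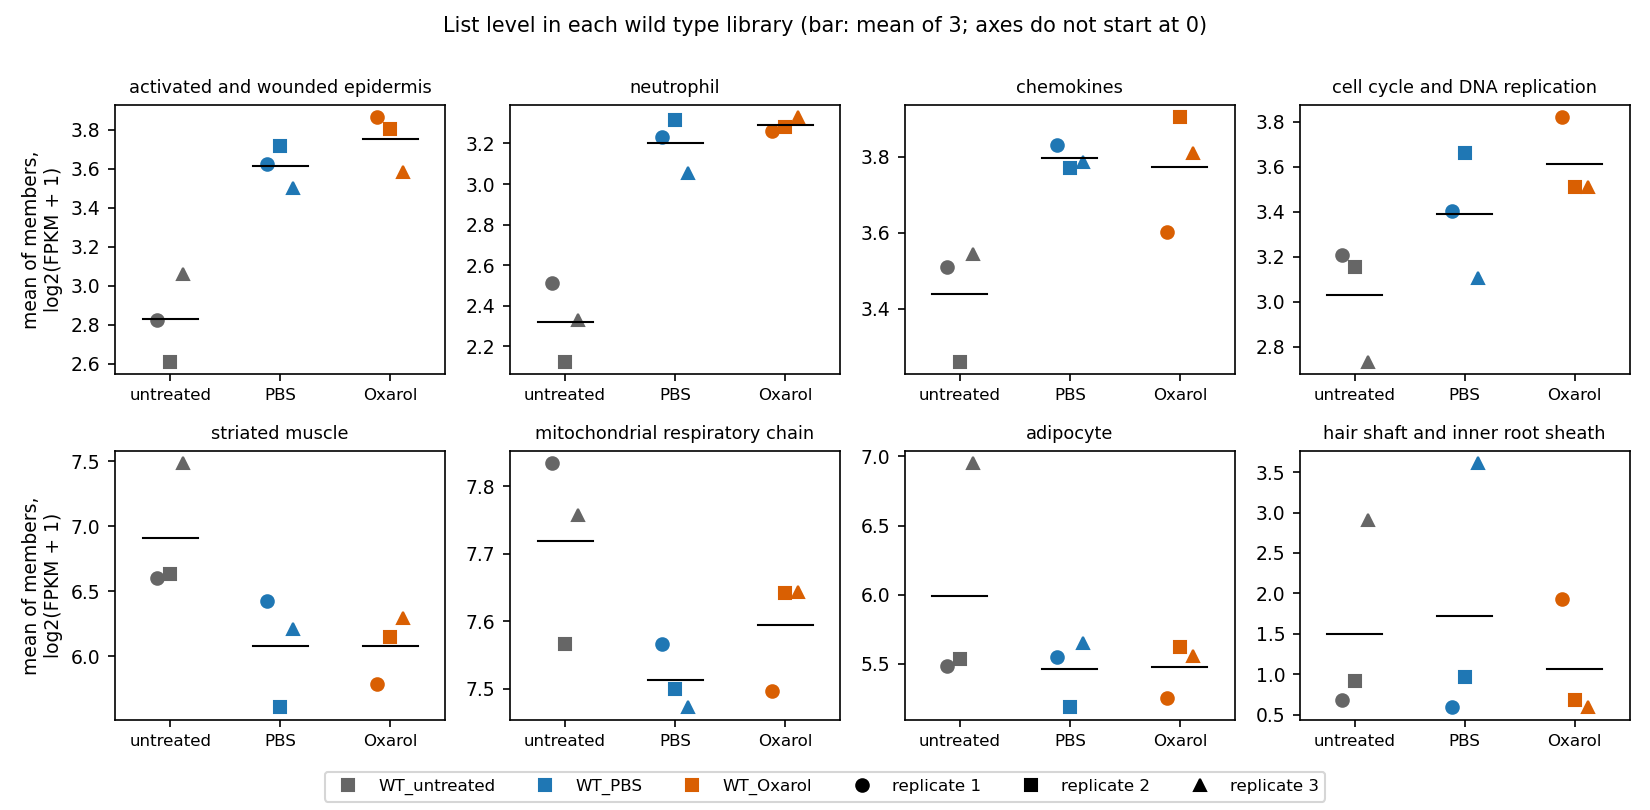
Mean of log2(FPKM + 1) over the members of 8 gene lists (vertical axes, not starting at 0) in each untreated, PBS and Oxarol wild type library; points are libraries with the replicate as the marker shape and bars are means of 3. The PBS libraries lie above the untreated libraries for activated epidermis, neutrophil and chemokine genes and below them for striated muscle genes. The groups overlap for cell cycle and adipocyte genes, the mitochondrial means touch, and replicate 3 of untreated and PBS stands apart for hair shaft genes.

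The difference was smaller in the second code series for part of the higher genes. PBS minus untreated was 3.82 within the first series and 1.36 within the second for S100a8, 2.50 and 0.72 for S100a9, and 3.10 and 1.20 for Krt6b. It was 1.59 and 1.03 for Gjb2, 1.70 and 1.27 for Cxcl5, and 2.72 and 1.61 for 2610528A11Rik. For the lower genes it was -1.09 and -1.04 for Cox7a1 and -0.97 and -1.66 for Pvalb. The second series holds 1 library of each group, so these differences between series have no replicate, and depth cannot be told apart from the series because the deepest library is the PBS library of the second series. Without PBS replicate 3, 6 genes passed the adjusted test, all higher with PBS: Mir1224, 2610528A11Rik, S100a9, Myc, Cxcl5 and Krt6b.

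Vdr, the receptor that the ointment of the series acts on, stood at 4.87, 9.35 and 9.57 FPKM untreated and 9.28, 10.1 and 9.43 FPKM with PBS. The groups overlapped, the difference was 0.30 ± 0.21 (adjusted p = 0.665), and without untreated replicate 1, the low library, it was 0.02. Cyp24a1, the vitamin D 24-hydroxylase and standard target of the receptor, did not exceed 0.372 FPKM in any untreated or PBS library, against 66.2, 599 and 458 FPKM in WT_Oxarol. In the vitamin D receptor pathway list 12 members were tested, and 1 was lower at an unadjusted p under 0.05 (5.36% of all genes). None was higher, and the median was -0.002.

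Values in the wild type ears given ointment are set beside those of PBS as a description of the other treated wild type group. The ointment comparisons use the same untreated or PBS libraries as above, so they are no independent evidence. S100a8 stood at 49.3, 61.6 and 56.1 FPKM with ointment, 3.22 above untreated (adjusted p = 0.0155) and 0.22 above PBS (adjusted p = 1.00). Krt6b was 3.34 above untreated (adjusted p = 0.00770) and 0.87 above PBS (adjusted p = 0.747), and Cxcl5 2.07 above untreated (adjusted p = 0.00126) and 0.51 above PBS (adjusted p = 0.545). Gjb2 was 1.57 above untreated (adjusted p = 0.0258) and 0.17 above PBS (adjusted p = 0.994). The p of the ointment against PBS does not show that those levels are equal.

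For 2610528A11Rik the ointment libraries, at 21.3, 36.6 and 28.0 FPKM, lay above the PBS libraries, with a difference of 4.07 from untreated (adjusted p = 0.000346) and of 1.72 from PBS (adjusted p = 0.0596). Stfa1 stood at 112, 187 and 119 FPKM with ointment, 2.48 above PBS (adjusted p = 0.158). Skint7 at 2.56, 2.26 and 3.19 FPKM with ointment was near the untreated level, 0.10 above untreated (adjusted p = 0.743) and 0.96 above PBS (adjusted p = 0.00964). Pvalb with ointment stood at 36.7, 38.7 and 68.5 FPKM, 1 value of which lay within the untreated range, and Cox7a1 at 99.8, 123.2 and 125 FPKM, below every untreated library.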

How the data were processed

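RNA of mouse ear skin was sequenced in 12 libraries, 3 a group. The authors deposited FPKM values per gene symbol; the file headers print no unit, and FPKM was inferred from the values and from Cufflinks 2.1.1, which the submitters' processing notes name beside TopHat2 2.0.8, Bowtie2 2.1.0 and build mm9. The sources used here give no settings. Values were tested as log2(FPKM + 1) with limma 3.58.1 (R 4.3.3), with group means for all 12 libraries, over genes listed at 1 FPKM or above in 3 or more libraries, Benjamini-Hochberg adjusted at 0.05. The procedure was tested on simulated data. Figures used matplotlib 3.10.9 (Python 3.11.15).

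Depth was estimated from steps between values under 0.1 FPKM; 77.9% to 82.8% of ratios lay within 0.015 (log2) of a step. Deposited counts were not used here, so no counting intervals are given.

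The named genes were up to 12 passing each way, otherwise up to 10 each way with the smallest p, groups that did not overlap and a mean of at least 5 FPKM in the higher group, up to 3 of each list, Vdr and Cyp24a1. Others, such as Chi3l3, Skint7, Krt6a, Krt16, Stfa1, Retnlg, Mmp3, Mmp10, Plaur, Cxcl2, Ccl2, Ccl7, Ccl27a, Defb4, Acta1, Csf3r, Fos, Egr1 and Atf3, were chosen after their values were seen. A few genes that the rule names are not reported here. The members and the 42 gene lists were chosen with earlier results of these data known. Alternatives were the pseudocount, the filter, quantile and median-of-ratios scaling, the libraries fitted, the code series as a term, a robust variance model, array weights, zeros of abundant genes as missing, short RNAs left out, and each library left out; leaving out both replicate 3 libraries was added after seeing the data.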

Additional observations from a re-analysis of the deposited data

How the results depend on the processing

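The count of 1 gene passing became 5 with a pseudocount of 0.1, 2 without the filter, 6 with only the 6 libraries compared, 2 with the 9 wild type libraries, 13 with the first code series alone, 3 with a robust variance model, 6 with array weights, 0 with short RNA genes left out, which removes Mir1224 itself, and 10 without both replicate 3 libraries, an alternative chosen after seeing the data. Leaving out 1 library at a time gave 1 to 6 genes, 6 without PBS replicate 3. With the 6 libraries alone, 5 of the 6 genes were short RNAs. The adjusted p of Mir1224 ranged from 1.67e-07 to 0.0706 over the alternatives. The 1312 genes at an unadjusted p under 0.05 became 866 with the 6 libraries alone and 2208 with array weights. Of the genes followed, 4 changed sign, none of them near the threshold. With each library left out in turn, Cyp24a1 ranged from -0.212 to 0.0167, Krt31 from -0.751 to 1.96, Egr1 from -0.247 to 0.952 and Atf3 from -0.563 to 0.593. Atf3 was also 0.116 in the first code series alone and without both replicate 3 libraries, and 0.350 with array weights. The cause was not tested. No paired analysis was possible because the labels give no replicate numbers; those printed are names in accession order. Depth per library is known only relative to the others, and the 3 libraries a group limit precision.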
